A study of Mus musculus with 12 samples.

Results

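The transcripts described here were higher after sciatic nerve injury in 2 RNA fractions of the mouse dorsal root ganglion at once, the RNA recovered with tagged ribosomes (IP) and the input RNA. They are 191 of the 101744 transcripts in the deposited table. Estimated counts of the 3 samples of a group were summed, 1 count was added, and the sum was divided by the total of its group to give counts per 1000000 (CPM). A transcript was kept where the ratio of injured to uninjured CPM was at least 2 in IP and at least 2 in input, with at least 15 summed counts in injured IP and at least 50 in injured input. Another 2 transcripts that met these limits were left out by definition. The members were thus chosen by their injury ratios in IP and in input, which are given below as a description. Intervals, counts and fits that use these ratios are no test of the members.

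All ganglia came from mice labelled RPL22HA+/+;Advillin-Cre+, with or without injury of the sciatic nerve. In these mice Cre recombinase, driven by the Advillin gene of peripheral sensory neurons, switches on a ribosomal protein with an HA tag, and an antibody to HA then pulls down tagged ribosomes with their RNA. The labels give 12 samples in 4 groups of 3, named IP uninjured, IP injured, input uninjured and input injured. The labels do not state age, sex, the time after injury or any pooling of animals, and for the input the extraction text in the labels is that of the pulldown.

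A sensory neuron whose axon is cut in the sciatic nerve keeps its cell body in the ganglion, where it is known to switch on genes for stress responses, survival and axon regrowth while lowering others that serve signalling at its terminals. Satellite glia, Schwann cells and macrophages around the cell bodies are known to respond too. Input RNA can hold RNA of all these cells, whereas the pulldown is meant to enrich that of the neurons. In such bulk samples, more cells of a type and more RNA per cell cannot be told apart. The files do not pair the transcript IDs with gene names, and 0 IDs were found in the gene tables used here. The members are therefore described by their values, and genes, pathways, cell type markers and sequences were not analysed here.

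Totals within a group were nearly equal. The summed totals were 571960 counts in IP injured, 636012 in IP uninjured, 4754071 in input injured and 5056160 in input uninjured, and the range of the 3 samples was 0.0374% to 0.449% of their mean. The median spread of the members between the 3 samples was 1.18 to 1.61 times what counting noise alone gives. For this reason each group was taken as 1 sample, although the labels list them separately, and in this reading the differences between injured and uninjured ganglia have no replicate check. A single count was worth 1.75 CPM in injured IP and 0.210 CPM in injured input, so at equal CPM the IP value is the less precise of the 2. All intervals are for counting error alone. Several amplified reads can come from 1 molecule, so these intervals can be too narrow.

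Of 3091 transcripts with the same minimum counts in the injured groups, 774 had a ratio of at least 2 in IP (25%) and 289 in input (9.35%). The 193 in both lists, the 2 left out included, made up 24.9% of the IP list and 66.8% of the input list. The opposite rule, with ratios of at most 0.5 in both fractions and the count limits set on the uninjured groups, kept 80 of 3068 transcripts. The median log2 injury ratio of the members was 2.09 in IP and 1.52 in input, beside 0.32 and -0.06 over the 3091. With no count added and uninjured groups at 0 set to a floor of 3 counts, the members' medians were 2.15 and 1.53. In 35 of the 191 both ratios were at least 4, in 9 both were at least 8, and in 125 the smaller ratio was under 3. The 191 transcripts together held 1.15% of the counts in uninjured IP and 4.63% in injured IP, and 3.84% and 10.5% in the corresponding input.

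**Figure D1:**
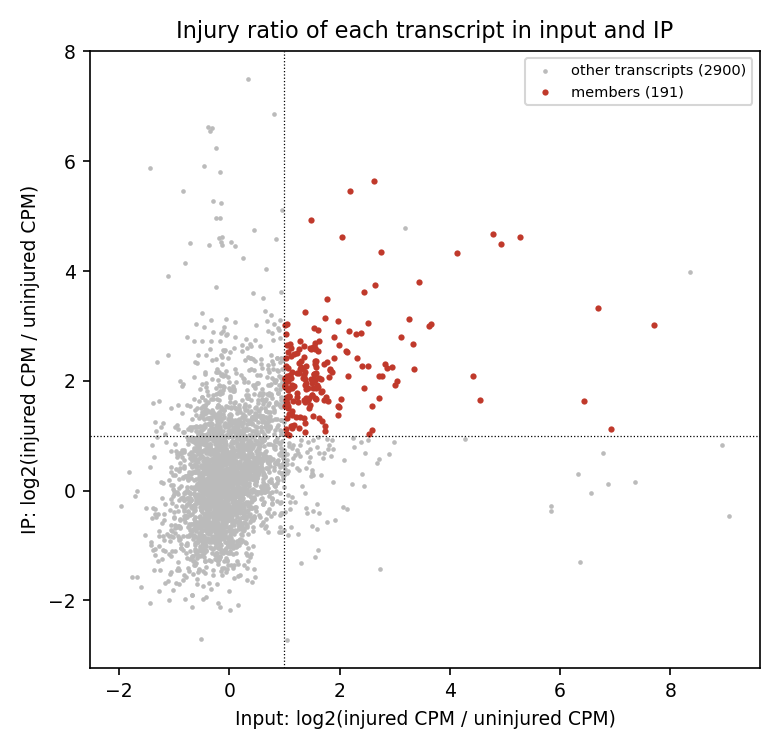
Each point is 1 of 3091 transcripts with the same minimum counts, at its log2 ratio of injured to uninjured CPM (1 count added) in input (horizontal) and in IP (vertical); red points are the 191 members and dotted lines mark a ratio of 2. The members fill the upper right corner by construction, most of them near the lines, and the 2 grey points in that corner are the transcripts left out by definition.

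Just inside the limits, the 3 members with the lowest IP ratios had 2.015 to 2.055 (1.927 to 1.963 for the 3 transcripts just outside), and the 3 with the lowest input ratios had 2.015 to 2.017 (1.988 to 1.996 outside). The 3 members with the fewest counts had 15 to 15.1 in injured IP (14.41 to 14.95 outside) and 51.7 to 53.6 in injured input (48.3 to 49 outside).

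The members were numbered from 1 to 191 by the smaller of their 2 ratios. Member 1, ENSMUST00000031843.7, was counted 4, 10 and 8 times in the 3 injured IP samples and 0 times in each uninjured one. Its IP level was 8.16-fold higher after injury with the uninjured sum set to the floor of 3 counts. That floor is a setting and not a bound, and the lower 95% counting limit, from the 0 counts themselves, was 6.09. In input it had 1854, 1831 and 1900.3 counts in injured and 80.0, 69.1 and 65.0 in uninjured samples, a 27.7-fold difference (95% counting interval 24.2 to 32.0). The groups did not overlap in either fraction. Its level in injured ganglia was 38.5 CPM in IP and 1175 CPM in input, so that this transcript, the first of the set by its smaller ratio, had a far lower CPM in the pulldown than in the input.

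Member 2, ENSMUST00000103096.10, had 5, 6 and 10 counts in injured IP and 0 in each uninjured IP sample, 7.78-fold higher against the floor (lower limit 5.79). Its input counts were 152, 162 and 154 in injured and 7, 1.88 and 3 in uninjured samples, 41.9-fold higher (23.5 to 80.85). In both fractions the lowest injured sample lay above the highest uninjured one.

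Member 3 combined a large change with high abundance. It had 39, 36 and 46 counts in injured IP against 2, 1 and 2 in uninjured IP, 26.9-fold higher (11.2 to 84.4). In input it had 5237, 5235 and 5229 counts in injured and 206, 174 and 164.5 in uninjured samples, 30.7-fold higher (28.1 to 33.4). It reached 3303 CPM in injured input and 212 CPM in injured IP. No sample of one condition overlapped those of the other.

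Members 5 and 10 differed from the first 3 in having a higher CPM in IP than in input, which they shared with others of the first 12, as given below. Member 5 had 57, 65 and 64 counts in injured IP against 6, 4 and 4 in uninjured IP, 14.8-fold higher (8.59 to 27.55), and 32, 21 and 38.05 against 2, 1 and 5 counts in input, 12.1-fold higher (5.89 to 28.9). Its level in IP was 13.9 times its input level in uninjured ganglia (5.45 to 38.3) and 16.98 times in injured ganglia (13.2 to 22.1). Member 10 had 41, 49 and 45 counts in injured IP and 6 in each uninjured IP sample, 8.34-fold higher (5.08 to 14.5). In input it had 107, 117 and 101 counts against 13, 7.0 and 7.12, 12.7-fold higher (8.61 to 19.7). Neither transcript's groups overlapped.

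Like members 1 to 3, the remaining transcripts among the first 12 had few uninjured IP counts. Members 4, 6, 7, 8, 9, 11 and 12 had 0 to 6 summed counts in uninjured IP and 17 to 54 in injured IP, and 0 to 89.25 against 64.5 to 734.5 in input. In injured ganglia members 4, 6, 7, 8, 9 and 12 had a higher CPM in IP than in input, and member 11 a lower one. For members 6 and 9 the counting interval of this ratio reached below 1. Member 6 had 30, 36 and 29.8 counts in injured input and 0 in each uninjured sample, 34.0-fold higher against the floor (lower limit 27.2). Member 9 had 52.2, 64.9 and 77.5 against 0 in each, 69.0-fold higher against the floor (lower limit 55.7). Its injured IP samples had 5.89, 11.7 and 10.5 counts against 0, 3 and 0, so that a single uninjured sample held all 3 of its uninjured IP counts. The 3 samples of each of the first 12 members agreed within counting noise (chi-square p of at least 0.01) in all 4 groups, and in none of the 12 did injured and uninjured samples overlap. Where a group held at most 3 counts, this check of agreement could not have failed. That was so in uninjured IP for members 1, 2, 4, 6, 7, 9, 11 and 12.

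**Figure D2:**
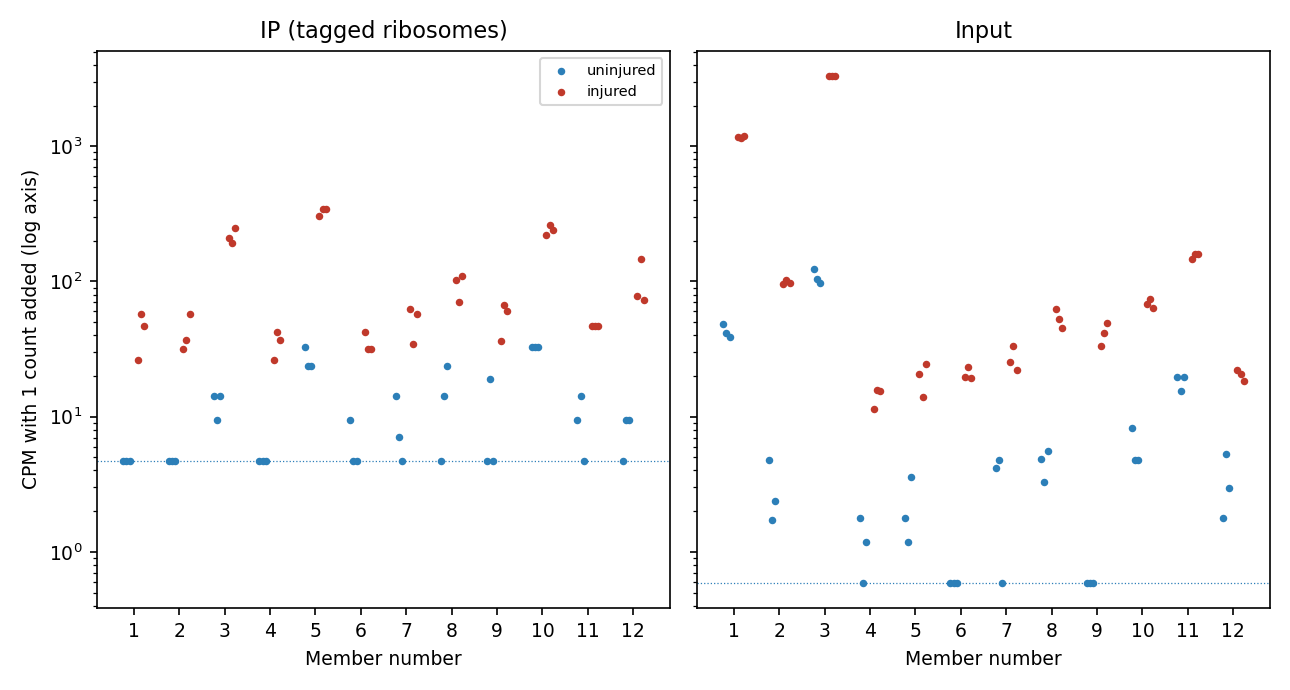
Each point is 1 sample's CPM with 1 count added, on a log axis, for members 1 to 12 in IP (left) and input (right); blue is uninjured, red injured, and the dotted line is the level of a sample with 0 counts in the uninjured group. For every transcript the red points lie above the blue ones in both panels, and members 1, 2 and 4 sit on the line in all 3 uninjured IP samples.

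The 5 members with the most counts in injured IP were members 32, 191, 68, 103 and 84. Member 32 stood apart from the other 4. It had 1822, 1911 and 1863 counts in injured IP against 489, 492 and 477 in uninjured IP, 4.27-fold higher (4.03 to 4.52). In input it had only 49.1, 20.6 and 38.7 counts against 2.33, 4.63 and 18.3, 4.57-fold higher (2.95 to 7.41). Its samples did not overlap in either fraction, but they differed by more than counting noise in 2 of the 4 groups. Its level was 9784 CPM in injured IP against 22.8 CPM in injured input, a ratio of 429 (356 to 526), and in uninjured ganglia the ratio was 460 (313 to 719).

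Member 191, last by its smaller ratio, was among the most precisely counted. Its injured IP samples had 650, 569 and 641 counts against 172, 193 and 187, 3.75-fold higher (3.40 to 4.13). Its input samples had 3798, 3880.5 and 3863 counts against 2104, 1991 and 1996, 2.015-fold higher (1.95 to 2.08). By group totals, its IP level was 0.721 times its input level in uninjured ganglia (0.659 to 0.786) and 1.34 times in injured ganglia (1.28 to 1.41). With another scaling, described below, ratios of IP to input in injured ganglia were 3.28-fold lower. The side of 1 on which member 191 lay after injury thus depends on the scaling. The counting intervals of its injury ratios in IP and input were thus separate, with the larger ratio in IP.

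The 5 members with the most counts in injured input were members 74, 103, 153, 109 and 68. Their injury ratios in input lay between 2.17 and 2.98, and those in IP, with no count added, between 3.09 and 6.13. Member 74 had 9651, 9371 and 9433 counts in injured input against 3414, 3480.5 and 3374, 2.95-fold higher (2.88 to 3.02). In IP it had 47.8, 39.5 and 39.9 counts against 18.1, 0 and 8.81, 5.26-fold higher (3.43 to 8.25). Its IP level was 0.0208 times its input level in uninjured ganglia (0.0138 to 0.0304) and 0.0372 times in injured ganglia (0.0309 to 0.0442). Member 153 had 150, 149 and 159 counts in injured IP against 23.5, 26.6 and 33.0, 6.13-fold higher (4.85 to 7.85). In input it had 6989, 7035 and 7021 counts against 3388, 3421 and 3514, 2.17-fold higher (2.12 to 2.22). None of the groups of members 74 and 153 overlapped, and both had a far lower CPM in IP than in input.

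Not every member was higher in each sample. In IP, 165 of 191 had all 3 injured samples above all 3 uninjured ones (31.9% of the 3091 transcripts), and in input 183 (22.3%). In 162 this held in both fractions (13.4%, or 4.02% of 5031 transcripts by the fuller rule that follows). All 165 and 183 also had a counting interval of the ratio above 1, which is the rule by which 11.1% of 11725 transcripts compared in IP and 9.23% of 6427 compared in input were counted as higher. These shares stand beside counts from the contrasts that chose the members and support nothing about them. In 26 members the samples overlapped in IP and in 8 in input, 5 of these in both. Member 92 is one of the 5, and was chosen after its values were seen. It had 0, 26.5 and 0 counts in injured IP and 0 in uninjured IP, with 0, 0 and 125 in injured and 0, 46.8 and 0 in uninjured input. In each group with any count of this transcript a single sample held all of it, so its place among the raised transcripts rests on 1 injured sample in each fraction. Over all members, 141 agreed within counting noise in all 4 groups (73.8%), as did 77.1% of the 3091.

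The IP ratio was the larger one in 142 members (74.3%, beside 63.8% of the 3091 transcripts) and the input ratio in 49 (25.7%, beside 36.2%). The log2 ratio in IP minus that in input had a median of 0.48 over the members and 0.30 over the 3091 transcripts. Its 95% counting interval, by a normal approximation, lay above 0 in 52 members (27.2%, beside 31.6% of the 3091) and below 0 in 11 (5.76%, beside 12.7%), and these counts use the ratios that chose the members. The widest differences came from groups at 0. Member 152, chosen as the lowest of these differences, had 87.0, 110 and 77.9 counts in injured IP against 23.9, 57.0 and 59.2, 2.18-fold higher (1.78 to 2.70). In input it had 20.3, 52.2 and 39.9 against 0 in each uninjured sample, 39.9-fold higher against the floor (lower limit 31.8). Uninjured IP held 0 counts in 7 members and uninjured input in 4, and no member was at 0 in both.

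The ratio of IP to input within a condition is not in the rule, although it uses the same samples. In uninjured ganglia 116 of 191 members had a lower CPM in IP than in input (60.7%), beside 33.5% of the 3091 transcripts. In injured ganglia 100 did (52.4%, beside 26.4%). By fold of at least 2, counting interval and no overlap, 86 members were lower and 36 higher in IP than in input in uninjured ganglia, against 23% and 45.9% of the 3091. In injured ganglia 76 were lower and 43 higher, against 18.2% and 51.1%. The median log2 ratio of the members was -0.78 in uninjured and -0.46 in injured ganglia, and that of the 3091 was 0.99 and 1.27. Members ranged from -5.90 (member 183) to 10.13 (member 152) in uninjured ganglia. Member 152 had 0 counts in uninjured input, so the upper end rests on the 1 count added. Every member had to rise in IP and in input, so the rule used the uninjured values of both fractions. The members' median was lower than that of the 3091 in uninjured IP (14.8 against 41.99 counts) but higher in uninjured input (195.7 against 167.2). Abundance in injured input also differed, as given below. Whether the rule or this abundance had a part in these ratios was not tested. With TMM scaling factors (trimmed mean of M values) every log2 ratio of IP to input was lower by 1.58 in uninjured and 1.71 in injured ganglia, and 153 and 154 members had a lower level in IP, beside 62.3% and 63.3% of the 3091.

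**Figure D3:**
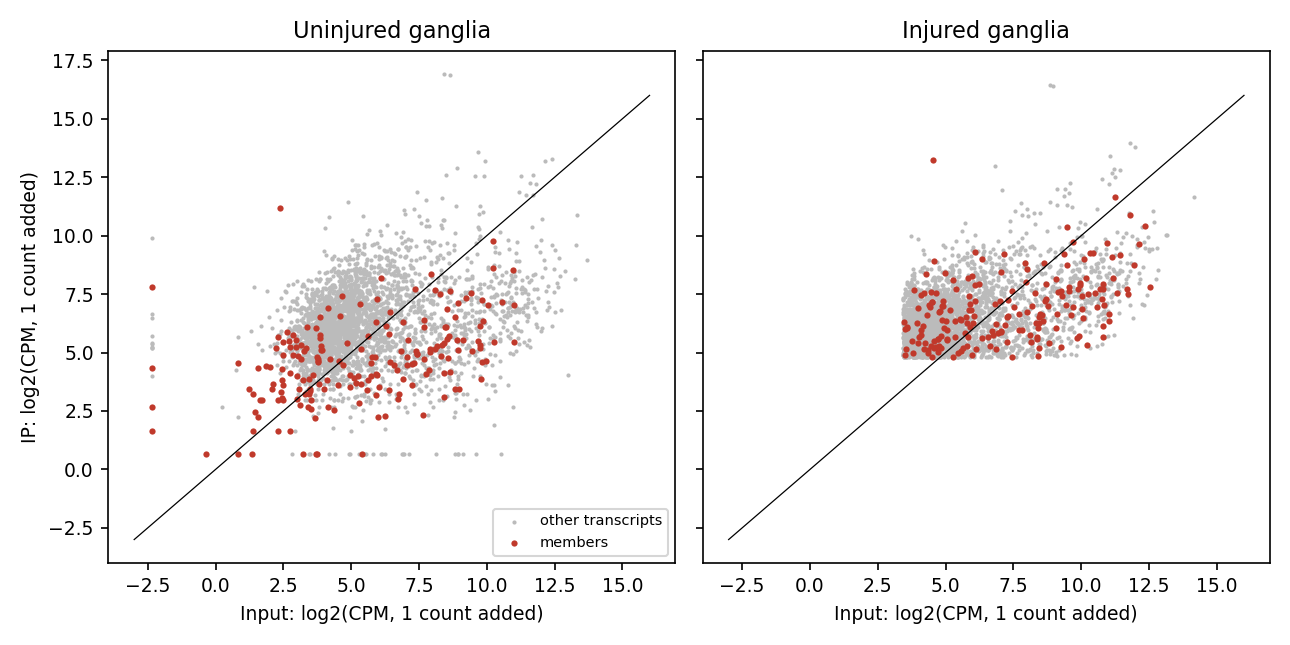
Each point is a transcript's log2 CPM (1 count added, group totals) in input (horizontal) and IP (vertical), for uninjured (left) and injured ganglia (right); red points are the 191 members, grey the other transcripts with the same minimum counts, and the line marks equal levels. In uninjured ganglia 116 members lie below the line and in injured ganglia 100.

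The members covered a wide range of abundance. Their summed counts in injured input ran from 51.7 to 28455, with a median of 586, beside a median of 155 over the 3091 transcripts. Classes of input counts were set after the values were seen. In injured input, 61 members had under 200 counts, 50 had 200 to under 1000 and 80 had at least 1000. These were 3.41%, 6.85% and 14.0% of the 1789, 730 and 572 transcripts of each class. Both ratios were at least 4 in 15, 15 and 5 members of the 3 classes, with members 1 and 3 in the class of at least 1000. The median input ratio was 3.06, 2.95 and 2.61, and the median IP ratio 4.78, 4.18 and 4.09. The ratio of IP to input also went down through the classes. Its median in injured ganglia was 3.21, 0.928 and 0.212, and in uninjured ganglia 2.55, 0.877 and 0.136, beside 3.30, 1.09 and 0.118 over all transcripts of each class in uninjured ganglia. Among the 80 abundant members 75 had a lower CPM in IP than in input before injury. The same share over all 572 transcripts of the class was not counted, but their median ratio of 0.118 was below the members' 0.136. A low IP level was thus usual in this class and not particular to the members.

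Among transcripts with the same minimum counts, those abundant in input were more often raised in IP whether or not they were raised in input. Among transcripts with an input ratio of at least 2, the IP ratio reached 2 in 62 of 126, 50 of 65 and 81 of 98 in the low, middle and high class (49.2%, 76.9% and 82.7%), the 2 left out included. Among those with an input ratio under 2, it did so in 14.9%, 21.4% and 40.3%. Of the 171 abundant transcripts whose input ratio was within 1.2-fold of 1, 70 had an IP ratio of at least 2 (40.9%), against 13.9% and 13.1% in the low and middle classes. The abundant members thus stand in a class where, under these limits, a higher IP level was common without a change in input. The share was higher still where the input rose. The limit of 15 counts was set on injured IP alone, so a transcript with low IP counts could enter only through its injured IP sum. Levels in IP were low beside input in the abundant class, so its shares can be too high and are not shown to be a trait of the class. Whether RNA of other cells in the pulldown had a part in the higher IP levels was not tested.

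**Figure D4:**
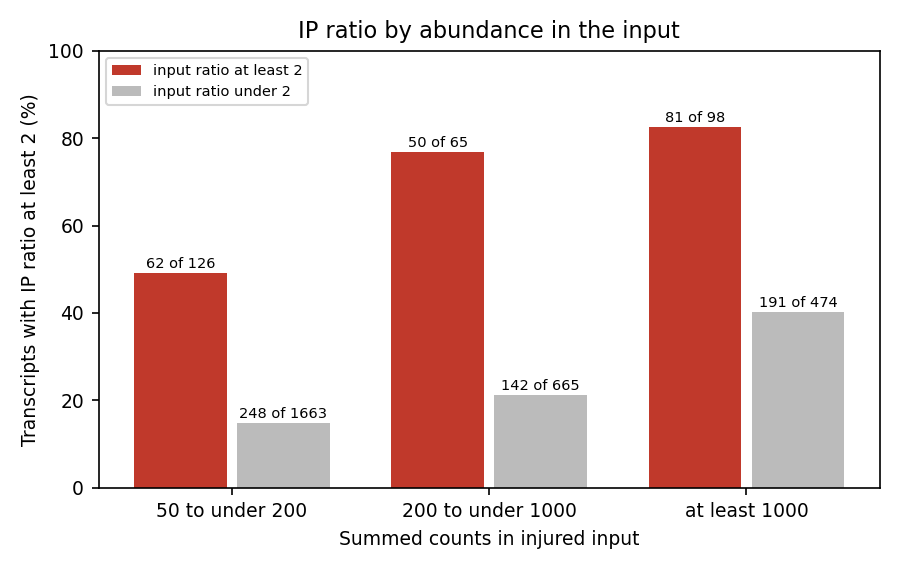
Bars give the percentage of transcripts with an IP ratio of at least 2, by summed counts in injured input (horizontal), for transcripts with an input ratio of at least 2 (red) and under 2 (grey), with the numbers above each bar. Both kinds of bar are higher in the class of at least 1000 counts (82.7% and 40.3%) than in the class of 50 to under 200 (49.2% and 14.9%).

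Estimated counts that are not whole arise where the quantification divides reads between transcripts. All 6 IP values were whole, within 0.001, in 39 of 191 members (20.4%), beside 43.6% of the 3091 transcripts, and in 0 members were all 12 values whole. By input class the share was 37.7%, 24% and 5% among members and 52.9%, 37.95% and 21.7% among all transcripts of the class. Where reads are divided, a higher estimate of 1 transcript can go with a lower one of a similar transcript, and whether this was so here was not tested.

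The labels list the 3 samples of a group as separate samples, and whether they are 3 libraries or portions of 1 was not settled. With the samples as replicates, edgeR's quasi-likelihood test called 108 members higher in IP (15.7% of 3135 transcripts tested) and 178 in input (13.7% of 8054) at an adjusted p under 0.05. DESeq2 called 44 (2.61% of 4174) and 176 (6.24% of 15229). In IP, 73 of the 191 did not pass edgeR's filter on low counts and were not tested. These fits use the contrasts that chose the members, so the calls restate the choice and are no test of it.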

How the data were processed

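Libraries came from a cDNA-PCR barcoding kit for nanopore sequencing, per the labels' protocols. For each transcript the authors deposited estimated counts, which are not normalized, and 0 of its columns were left unused. The submitters' processing notes name minimap2, Salmon and the builds GRCm39 and mm39. Which did what, and with which versions and settings, is not given in the sources used. The members, gene lists and tests were chosen with earlier results of these data known. Gene lists could not be applied without gene names.

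Sums per group, ratios with 1 count added and exact conditional (Clopper-Pearson) 95% counting intervals were computed in Python 3.11.15 with scipy 1.17.1. Sums were rounded to whole numbers for the intervals. A transcript was called higher where the higher group reached 10 CPM, the ratio was at least 2, the interval did not reach 1 and the 3 samples of each group did not overlap. Alternatives used edgeR 4.0.16 (TMM, filterByExpr, quasi-likelihood test) and DESeq2 1.42.0 on counts rounded to whole numbers, with p-values adjusted by Benjamini-Hochberg over all transcripts tested. In counts simulated without spread beyond counting noise, 100 transcripts were raised 4-fold in each fraction. The call rule and edgeR recovered all 100, and the call rule also called 35 of 9756 unchanged transcripts higher in IP and 0 of 5774 in input. The raised transcripts were drawn only from well-counted ones, all above the members' upper quartile of 28.7 counts in uninjured IP (median 14.8). The recovery therefore does not cover most members in IP. The text gives in full the 12 members with the largest smaller ratio, or their range, members from the 5 with the most counts in each injured group, and at most 2 IDs.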

Additional observations from a re-analysis of the deposited data

How the results depend on the processing

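No median of the members changed sign under the scalings, added counts, left-out samples and agreeing samples tried. The injury ratios were chosen by the rule, so the sign of their medians is no check. For IP to input the background did depend on the scaling. With TMM factors 62.3% of the 3091 transcripts were also lower in IP in uninjured and 63.3% in injured ganglia, against 33.5% and 26.4% by group totals. With TMM factors the members' median log2 injury ratio was 2.00 in IP and 1.57 in input, and the median log2 ratio of IP to input was -2.35 in uninjured and -2.17 in injured ganglia. TMM factors kept 202 transcripts, 187 of them among the 191. With 0.5 counts added the IP median was 2.12 and that of IP to input in uninjured ganglia -0.99. With 5 counts added the medians were 1.83 and 1.48 for injury and -0.38 and -0.22 for IP to input. Leaving out 1 replicate number in all groups gave medians of 2.03 to 2.07 for injury in IP and 1.48 to 1.5 in input. For IP to input they were -0.73 to -0.67 in uninjured and -0.38 to -0.29 in injured ganglia. With the count limits unchanged, 152 to 163 transcripts then met the rule, and only 137 to 143 of these were among the 191. Among members whose samples agreed within counting noise, an alternative added after seeing the data, the IP median was 2.05 and that of IP to input in uninjured ganglia -0.93.

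Members called higher in IP numbered 165 as reported, 108 in edgeR, 70 in edgeR with no filter (1.04% of all transcripts tested) and 44 in DESeq2. In input 178 members were called in edgeR, 172 with no filter (2.58%) and 176 in DESeq2. With the replicate number as a block, edgeR called 82 members in IP (9.57% of all tested) and 169 in input (10.1%). The numbers were not taken as pairs. Same-numbered samples correlated at -0.291 to -0.114 in IP over 528 transcripts and at 0.0756 to 0.109 in input over 2784. Differently numbered ones correlated at -0.217 to 0.345 in IP and at -0.213 to 0.140 in input. These values do not settle whether the input samples were paired. The planned values for other transcripts of the members' genes, for sums per gene and for gene lists were not run, because the IDs could not be paired with genes. Depth limits IP most, since 75 members had under 10 counts in uninjured IP.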
